A study of Mus musculus with 8 samples.

Results

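The genes described here are 9 known transcriptional targets of STAT3 that act in cell survival and growth: the kinase genes Pim1, Pim2 and Pim3, the transcription regulator genes Bcl3, Bcl6 and Myc, and the anti-apoptotic genes Mcl1, Bcl2l1 and Bcl2. They were chosen by name, with earlier results of these data known. All 9 were found among the 55358 genes of the expression files. Each reached 1 FPKM (fragments scaled to the length of the transcript and the depth of the library, a level that can be compared between genes) in at least 2 of the 8 libraries and so entered the test, which covered 13693 genes. Bcl2 entered only through the Arid5a-/- libraries, since it was under 1 FPKM in each WT library.

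The cells were mouse embryonic fibroblasts (MEFs), connective-tissue cells cultured from embryos, and their messenger RNA was sequenced. They were wild type (WT) or Arid5a-/-, here called KO, and were kept for 24 h without interleukin 6 (IL-6) or with IL-6 at 100 ng/ml. The 4 groups were untreated WT, WT with IL-6, untreated KO and KO with IL-6, with 2 libraries each. The series was designed to look for long noncoding RNAs downstream of IL-6 and Arid5a in the context of breast cancer. The labels do not name the embryo strain, the part of Arid5a that was removed or the number of lines behind each genotype, and they leave unsaid whether replicate libraries stem from separate cultures. The p-values thus reflect the spread between these particular libraries, and that spread may be technical.

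IL-6 binds its receptor together with gp130, JAK kinases phosphorylate STAT3, and STAT3 dimers enter the nucleus and bind DNA elements of the form TTCNNNGAA. Among the genes induced in many cell types are the Pim kinases, which phosphorylate the death promoter Bad and regulators of cell-cycle entry and translation, Bcl3, an atypical IkappaB protein that works with NF-kappaB p50 and p52 in the nucleus, Bcl6, a zinc-finger repressor, and Myc, which drives ribosome production and growth. Mcl1, Bcl2l1 (the gene of Bcl-xL) and Bcl2 encode the proteins that hold the pore-forming effectors Bax and Bak in check at the mitochondrion. The protein of Arid5a binds RNA and prolongs the life of certain inflammatory transcripts, among them those of Il6 and Stat3.

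The libraries held 36.8 to 46.7 M fragments, as read from the steps between low FPKM values, and libraries of 1 group correlated at r = 0.9967 to 0.9973 across genes. Arid5a stood at 15.89 to 30.99 FPKM in the 4 WT libraries and at 5.51 to 8.474 in the 4 KO libraries, so it was lower under the KO label but not absent. All 10 fibroblast markers were detected, meaning 1 FPKM in any library. Thy1 and Lum reached it in WT only, at 0.414 to 0.919 and 0.15 to 0.321 FPKM in KO. The 10 markers summed to 7680 to 8930 FPKM in WT and 5180 to 5370 in KO. In WT the sum was carried by S100a4 (4420 to 5100 FPKM) and Vim (1750 to 2290). In KO, S100a4 (1010 to 1150) and Vim (1020 to 1090) stood beside Col1a1 (912 to 1060), Col3a1 (828 to 878) and Dcn (783 to 815). Of the 10 markers 6 were higher in every WT library than in any KO library. The reverse held for 3 (Col1a1, Col3a1 and Dcn), and 1 overlapped. All 6 mesothelial markers were detected too, summing to 38.3 to 52.7 FPKM in WT and 1590 to 1650 in KO. In WT only Msln and Krt19 of that list reached 1 FPKM, with Wt1 and Lrrn4 at 0. The epithelial list, with 4 of 6 detected and Krt5 at 0, summed to 1.15 to 1.69 against 82.3 to 87.2. Its detected markers reached 1 FPKM in KO only, Krt14 (61.4 to 66.0) the highest. Endothelial markers (2 of 6 detected, in KO only) summed to 0.0764 to 0.188 in WT and 10.8 to 12.0 FPKM in KO. Adipocyte markers (1 of 4, in WT only) summed to 6.44 to 32.7 and 0.114 to 0.442. Of the macrophage markers 1 of 8 was detected, with Adgre1 and C1qa at 0, and of the lymphocyte markers 0 of 6. Xist, expressed from the inactive X chromosome, was at 55.21 to 61.02 FPKM in KO and at most 0.005623 in WT, while the Y-linked Ddx3y was at 34.58 to 36.64 in WT and at most 0.007462 in KO. Each difference between the genotypes given here thus cannot be told apart from these differences in sex and tissue markers, and in bulk RNA fewer cells of a type cannot be told apart from less RNA per cell.

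Among the 3 transcription regulators, Bcl3 (chr7:19808462-19822770, minus strand) and Bcl6 (chr16:23965052-23988852, minus strand) had the same shape over the groups (positions on GRCm38.p6 throughout). The WT libraries held Bcl3 at 13.11 and 11.21 FPKM untreated and at 27.74 and 27.45 after IL-6, and the KO libraries at 6.634 and 8.033 untreated and at 8.749 and 10.11 after IL-6. Bcl6 stood at 3.742 and 3.515 FPKM (WT untreated), 7.438 and 7.299 (WT after IL-6), 2.221 and 2.489 (KO untreated), and 3.11 and 2.951 (KO after IL-6). For both genes the WT libraries with IL-6 stood highest, every KO library lay below every WT library, and no 2 groups overlapped. Myc (chr15:61985391-61990374, plus strand) was at 25.44 and 27.38 FPKM in WT cells, with 34.26 and 31.93 after IL-6, and at 26.05 and 25.94 in KO cells, with 27.04 and 28.99 after IL-6. Its WT libraries with IL-6 were again the highest, but untreated WT overlapped both KO groups.

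Of the Pim kinases, Pim1 (chr17:29490753-29496112, plus strand) was at 17.0 and 16.51 FPKM (WT untreated), 23.74 and 22.13 (WT after IL-6), 28.11 and 28.97 (KO untreated), and 30.27 and 32.76 (KO after IL-6). All KO libraries thus lay above all WT libraries, the opposite order to Bcl3 and Bcl6. Pim3 (chr15:88862186-88865726, plus strand) was at 18.08 and 16.39 FPKM in WT cells, with 34.72 and 33.07 after IL-6, and at 30.43 and 32.91 in KO cells, with 34.95 and 36.04 after IL-6. Only the untreated WT libraries were low, and the other 3 groups lay within 30.43 to 36.04 FPKM. Pim2 (chrX:7878262-7883432, plus strand), which is X-linked, was much lower, at 4.434 and 4.174 FPKM (WT untreated), 4.001 and 3.744 (WT after IL-6), 3.117 and 3.923 (KO untreated), and 2.957 and 3.39 (KO after IL-6). Its untreated KO libraries lay the farthest apart and overlapped both IL-6 groups.

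Of the anti-apoptotic genes, Mcl1 (chr3:95658788-95663176, plus strand), whose protein is short-lived and depends on steady synthesis, was at 71.04 and 69.48 FPKM (WT untreated), 73.15 and 69.11 (WT after IL-6), 61.63 and 65.45 (KO untreated), and 69.28 and 71.56 (KO after IL-6). For the sum over its transcripts, only untreated KO stood apart, below the others. Bcl2l1 (chr2:152780668-152831728, minus strand) was at 19.77 and 17.93 FPKM in WT cells, with 17.34 and 19.81 after IL-6, and at 29.06 and 31.96 in KO cells, with 26.84 and 29.29 after IL-6. The genotypes did not overlap, and within each genotype the IL-6 and untreated libraries did. Bcl2 (chr1:106538178-106714274, minus strand) was at 0.7382 and 0.7406 FPKM (WT untreated), 0.4475 and 0.374 (WT after IL-6), 1.898 and 1.882 (KO untreated), and 1.904 and 1.868 (KO after IL-6). Every KO library lay above every WT library. Behind these levels stood between 104 fragments (Bcl2 in a WT library with IL-6) and 9760 (Mcl1 in a KO library with IL-6).

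**Figure D1:**
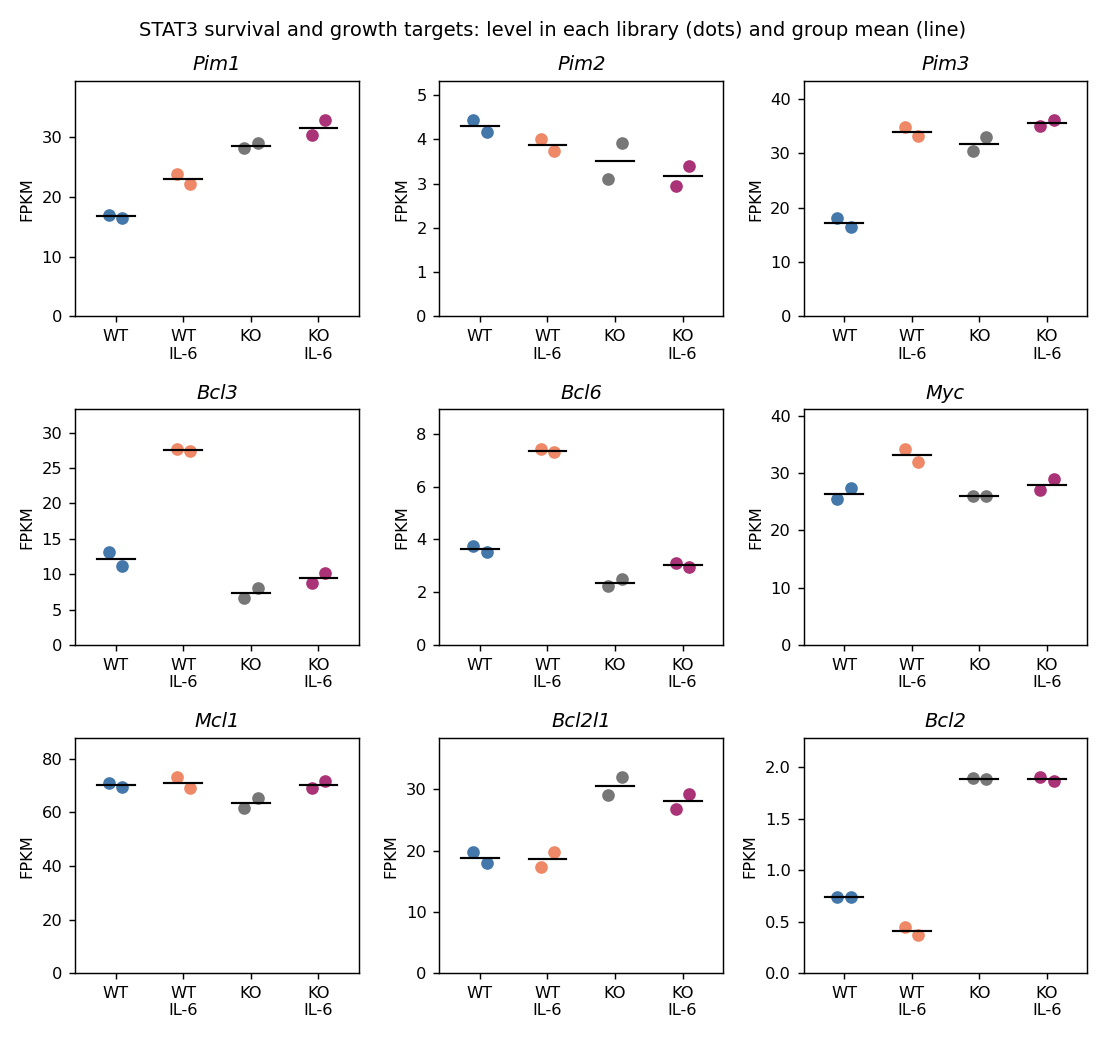
Level of each of the 9 genes in FPKM (vertical axis, from 0) in the 4 groups (horizontal axis), with 1 dot per library and a line at the group mean. Bcl3 and Bcl6 peak in WT with IL-6 at means of 27.59 and 7.369 FPKM, Pim3 is low only in untreated WT at 17.23, and Bcl2l1 and Bcl2 separate by genotype.

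On this length-corrected scale Mcl1 had the highest level and Bcl2 the lowest in all 4 groups. In untreated WT the order was Mcl1, Myc, Bcl2l1, Pim3, Pim1, Bcl3, Pim2, Bcl6 and Bcl2, and the neighbours Bcl2l1, Pim3 and Pim1 overlapped. With IL-6 Pim3 (33.9 ± 1.17 FPKM, SD, n = 2) moved beside Myc (33.09 ± 1.65), Bcl3 (27.59 ± 0.199) passed Pim1 (22.94 ± 1.14), and Bcl6 (7.369 ± 0.098) passed Pim2 (3.872 ± 0.182). In untreated KO the order was Mcl1, Pim3, Bcl2l1, Pim1, Myc, Bcl3, Pim2, Bcl6 and Bcl2, with Pim3 and Bcl2l1 overlapping. In KO with IL-6 it was Mcl1, Pim3, Pim1, Bcl2l1, Myc, Bcl3, Pim2, Bcl6 and Bcl2, and Bcl2l1 overlapped Myc as Pim2 overlapped Bcl6.

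IL-6 raised 5 of the 9 genes in WT cells and lowered 1. Bcl3 more than doubled in level (2.27-fold on the ratio of mean FPKM; log2 difference of FPKM + 1, 1.12 ± 0.11 SE, limma adjusted p = 0.00065), and Pim3 (1.97-fold; 0.94 ± 0.062, adjusted p = 0.000114) and Bcl6 (2.03-fold; 0.85 ± 0.072, adjusted p = 0.00036) changed by about as much. Pim1 rose less (1.37-fold; 0.43 ± 0.056, adjusted p = 0.00262), and so did Myc (1.25-fold; 0.31 ± 0.058, adjusted p = 0.0117). Bcl2, already the lowest of the 9, fell to a ratio of 0.556 (-0.30 ± 0.082, adjusted p = 0.0469). Log2 differences of FPKM + 1 understate the change of low genes such as Bcl2, Bcl6 and Pim2. Of all genes tested, 15.7% passed at an adjusted p below 0.05, 8.3% as higher and 7.41% as lower, and the median log2 difference of the 9 genes was 0.31 beside -0.002 for all genes.

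None of the 3 anti-apoptotic genes passed as higher. Mcl1 differed by 0.02 ± 0.046 (95% interval -0.09 to 0.13, adjusted p = 0.857), Bcl2l1 by -0.02 ± 0.085 (-0.22 to 0.18, adjusted p = 0.904), and their treated and untreated WT libraries overlapped. Pim2, unlike the other 2 Pim genes, did not pass (-0.12 ± 0.10, interval -0.36 to 0.12, adjusted p = 0.488). The Bcl2 call ended in 14 of 18 alternative fits, including each fit that left out 1 library (adjusted p 0.0692 to 0.173). The Myc call ended without the first untreated WT library (adjusted p = 0.062), without the first WT library with IL-6 (0.069), in a fit of the 2 WT groups alone (0.0673) and for its most abundant transcript (0.471). Scaling all libraries to equal total FPKM changed the split of all called genes from 1136 higher and 1014 lower to 813 and 1527, and turned the direction of none of the 6.

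**Figure D2:**
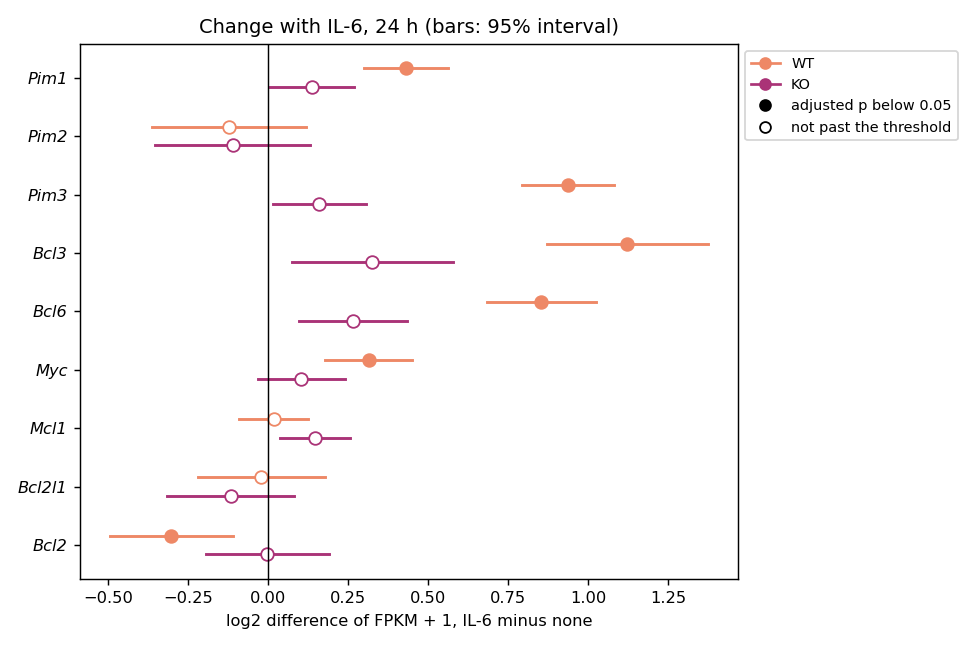
Log2 difference of FPKM + 1 with IL-6 (horizontal axis) for each gene, in WT and KO cells, with 95% intervals from limma as bars and filled dots where the adjusted p was below 0.05. In WT 6 genes have filled dots, Bcl3 the farthest right at 1.12, and in KO 0 of 9 do.

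In KO cells 0 of the 9 genes passed for IL-6 by limma, and 5 had an unadjusted p below 0.05. By adjusted p the background was as sparse, with 0.0219% of all genes passing and the same share as higher. At an unadjusted p below 0.05 stood 1025 of the 13693 genes tested, a smaller share than 5 of 9. The 9 genes were not tested as a set. Of the regulators, Bcl3 differed by 0.33 (95% interval 0.07 to 0.58, adjusted p = 0.541), Bcl6 by 0.27 (0.10 to 0.44, adjusted p = 0.442) and Myc by 0.10 (-0.03 to 0.24, adjusted p = 0.754). Pim3 differed by 0.16 (0.02 to 0.31, adjusted p = 0.634) and Pim1 by 0.14 (0.01 to 0.27, adjusted p = 0.653), while Pim2 was at -0.11 (-0.35 to 0.13, adjusted p = 0.867). The KO libraries with IL-6 lay above the untreated ones for Bcl3, Bcl6, Myc, Pim1, Pim3 and Mcl1. For Mcl1 the difference was 0.15 (0.04 to 0.26, adjusted p = 0.526), for Bcl2l1 -0.12 (-0.31 to 0.08, adjusted p = 0.821) and for Bcl2 -0.0022 (-0.19 to 0.19, adjusted p = 1.0). No alternative fit called any of the 9 genes in this comparison.

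The IL-6 responses of the genotypes were then compared directly. The response was smaller in KO for Pim3 (difference of the log2 differences, KO minus WT, -0.78 ± 0.087, adjusted p = 0.00347), Bcl3 (-0.80 ± 0.15, adjusted p = 0.0268) and Bcl6 (-0.59 ± 0.10, adjusted p = 0.0193). These 3 of 9 genes passed where 6.06% of all genes did, 3.52% with a lower and 2.54% with a higher response in KO. The responses of the other genes were not shown to differ: Pim1 -0.29 (95% interval -0.48 to -0.11, adjusted p = 0.0816), Myc -0.21 (-0.40 to -0.02, adjusted p = 0.194), Bcl2 0.30 (0.03 to 0.57, adjusted p = 0.191), Mcl1 0.13 (-0.02 to 0.28, adjusted p = 0.314), Bcl2l1 -0.09 (-0.38 to 0.19, adjusted p = 0.71) and Pim2 0.01 (-0.33 to 0.35, adjusted p = 0.98). This comparison uses the libraries of both IL-6 comparisons.

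Pim3 passed this test in all 18 alternative fits, with adjusted p values up to 0.0319. The starting level differed for the 3 genes, since untreated KO cells held Pim3 at 31.67 ± 1.76 FPKM, near the 33.9 ± 1.17 of WT with IL-6, and Bcl3 and Bcl6 at 7.334 ± 0.989 and 2.355 ± 0.19, below untreated WT. The Bcl3 call ended in 7 alternatives: without the second untreated WT library (adjusted p = 0.0802), without the first or the second WT library with IL-6 (0.0868 and 0.0816), without the second untreated KO library (0.0768), without the first KO library with IL-6 (0.0897), with no filter (0.0921) and for its main transcript (0.211). The Bcl6 call ended in 8: without those same libraries (0.0665, 0.0722, 0.0635, 0.0672 and 0.0557, in the same order), without the second KO library with IL-6 (0.0726), with no filter (0.066) and for its main transcript (0.124). With equal total FPKM the called genes split into 477 higher and 389 lower, against 348 and 482.

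Transcription-start windows of these genes were searched for the STAT motif TTCNNNGAA and the E-box CACGTG, the element bound by Myc and Max; both motifs read the same on either strand. RefSeq windows on GRCm38.p6, 300 bases long with 250 before and 50 after the annotated start, were matched for 8 of the 9 genes (12 windows). The STAT motif was in 2 of the 12 windows, both of Bcl6, while 8.3% of all 32851 windows of this length hold it. The first Bcl6 window surrounds the start of its main transcript and the second lies in the first intron of that transcript. They are printed 5′ to 3′ on the minus strand, with the motifs in capitals, beside the windows of Bcl3 and Pim3, the other 2 genes whose responses differed, which hold neither motif.
Bcl6, chr16:23988803-23989102, minus strand: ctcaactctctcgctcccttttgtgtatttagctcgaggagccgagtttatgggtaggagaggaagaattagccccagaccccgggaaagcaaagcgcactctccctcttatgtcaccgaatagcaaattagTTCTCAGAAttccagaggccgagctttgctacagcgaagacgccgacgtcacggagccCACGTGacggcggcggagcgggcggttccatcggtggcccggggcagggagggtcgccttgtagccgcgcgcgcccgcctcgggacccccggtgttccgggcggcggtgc
Bcl6, chr16:23981234-23981533, minus strand: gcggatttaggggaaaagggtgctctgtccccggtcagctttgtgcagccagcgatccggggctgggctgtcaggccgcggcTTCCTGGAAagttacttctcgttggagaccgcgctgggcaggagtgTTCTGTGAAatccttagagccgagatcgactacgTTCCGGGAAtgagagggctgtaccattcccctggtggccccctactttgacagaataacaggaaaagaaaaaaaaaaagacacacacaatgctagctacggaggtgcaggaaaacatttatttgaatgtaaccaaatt
Bcl3, chr7:19822706-19823005, minus strand: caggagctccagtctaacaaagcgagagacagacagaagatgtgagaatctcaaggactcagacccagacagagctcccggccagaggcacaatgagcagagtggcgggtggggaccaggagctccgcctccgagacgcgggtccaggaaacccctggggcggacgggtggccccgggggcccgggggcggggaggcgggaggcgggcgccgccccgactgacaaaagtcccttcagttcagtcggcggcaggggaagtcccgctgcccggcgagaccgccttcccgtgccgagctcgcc
Pim3, chr15:88861944-88862243, plus strand: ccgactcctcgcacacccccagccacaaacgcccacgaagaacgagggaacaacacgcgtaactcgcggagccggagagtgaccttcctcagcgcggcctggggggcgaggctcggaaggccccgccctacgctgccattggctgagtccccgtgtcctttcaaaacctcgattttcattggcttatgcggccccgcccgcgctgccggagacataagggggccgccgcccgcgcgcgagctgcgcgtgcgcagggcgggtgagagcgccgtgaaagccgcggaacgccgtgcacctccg
The first Bcl6 window holds TTCTCAGAA 118 bases before the start and an E-box 60 bases before it. The second holds 3 matches, TTCCTGGAA, TTCTGTGAA and TTCCGGGAA, at 168, 122 and 88 bases before its start. An E-box was also in 1 of the 2 windows of Pim1 (chr17:29492835-29493134), 58 bases before the start, and in 7.15% of all windows. A match describes the letters only, and binding was not measured.

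Without IL-6, 7 of the 9 genes differed between KO and WT, 4 higher and 3 lower, where 71.0% of all genes tested did (36.4% higher and 34.5% lower), so the share among the 9 is near the background. Pim3 (0.84 ± 0.062, adjusted p = 1.07e-05), Pim1 (0.73 ± 0.056, adjusted p = 1.32e-05), Bcl2 (0.73 ± 0.082, adjusted p = 0.000112) and Bcl2l1 (0.67 ± 0.085, adjusted p = 0.000234) were higher in KO. Bcl2 was 2.56-fold and Bcl2l1 1.62-fold the WT level on the ratio of means. Since Bcl2 entered the test only through its KO libraries, its calls between the genotypes give the counts of the 9 no support. Bcl3 (-0.66 ± 0.11, adjusted p = 0.000909), Bcl6 (-0.46 ± 0.072, adjusted p = 0.000731) and, by a small amount, Mcl1 (-0.14 ± 0.046, adjusted p = 0.0253) were lower. Myc differed by -0.02 ± 0.058 (95% interval -0.16 to 0.11, adjusted p = 0.758) and Pim2 by -0.24 ± 0.10 (-0.48 to 0.01, adjusted p = 0.0738). The Mcl1 call ended without the first or second untreated WT library (adjusted p = 0.1 and 0.0524), without the first KO library (0.148), without the intensity trend (0.0509) and with equal totals (0.108). Pim2 passed without the second KO library (0.0197) and with quantile normalization (0.033).

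With IL-6 in both genotypes, 6 of the 9 genes differed, 3 in each direction, where 71.7% of all genes did (36.9% higher and 34.8% lower). Bcl3 was now at a ratio of 0.342 to WT (-1.46 ± 0.11, adjusted p = 1.03e-05) and Bcl6 at 0.411 (-1.05 ± 0.072, adjusted p = 7.1e-06). Bcl2 was 4.59-fold the WT level (1.03 ± 0.082, adjusted p = 1.55e-05), Bcl2l1 1.51-fold (0.57 ± 0.085, adjusted p = 0.00053) and Pim1 1.37-fold (0.44 ± 0.056, adjusted p = 0.000221). Myc was lower (-0.23 ± 0.058, adjusted p = 0.00786), while Pim3 no longer differed beyond the test's threshold (0.06 ± 0.062, 95% interval -0.08 to 0.21, adjusted p = 0.373). Mcl1 (-0.01 ± 0.046, interval -0.12 to 0.10, adjusted p = 0.802) and Pim2 (-0.22 ± 0.10, interval -0.47 to 0.02, adjusted p = 0.0855) did not pass either. Myc lost its call without the first WT or the first KO library with IL-6 (adjusted p = 0.0524 and 0.055), with equal totals (0.0707) and for its main transcript (0.568). Pim2 gained one with quantile normalization (0.0215) and Pim3 with equal totals (0.043). Without the first or second untreated KO library Pim2 stayed at -0.22. For the main transcripts Mcl1 gained a call (0.0127) and Pim1 lost its call (0.064). That main Pim1 transcript is annotated as a retained intron, at 16.0 ± 0.85 FPKM (SD) in KO and 12.8 ± 1.69 in WT with IL-6. The most abundant coding transcript of Pim1 was at 14.7 ± 0.574 in KO and 9.14 ± 0.318 in WT with IL-6. No test of that coding transcript is given here.

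**Figure D3:**
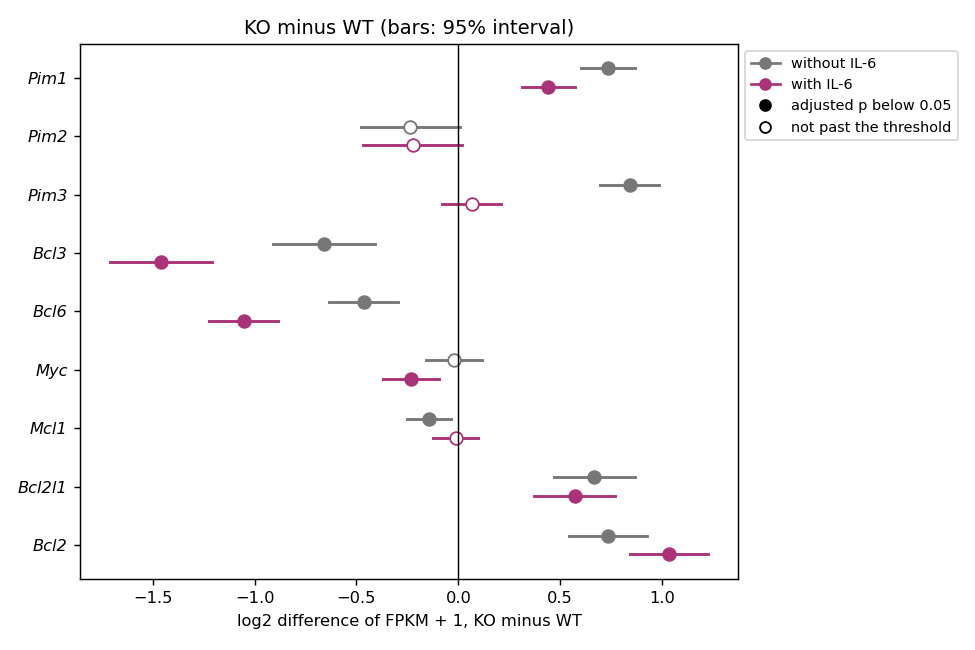
Log2 difference of FPKM + 1, KO minus WT (horizontal axis), for each gene without and with IL-6, with 95% intervals from limma as bars and filled dots where the adjusted p was below 0.05. Pim1, Bcl2l1 and Bcl2 lie right of 0 and Bcl3 and Bcl6 left of it in both conditions, while Pim3 moves from 0.84 to 0.06.

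Most of the 9 genes were carried by 1 transcript. Over the 8 libraries Pim3-201 held 100.0% of Pim3, Bcl6-201 98.1% of Bcl6, Mcl1-201 95.8% of Mcl1, Pim2-201 88.4% of Pim2 and Bcl3-201 83.9% of Bcl3, and Bcl2-201 held 96.9% of Bcl2 in untreated WT. Pim1 was split between the coding Pim1-201 (44.6%, 6 exons) and Pim1-204 (51.8%), which is annotated as a retained intron. In WT, Pim1-204 was at 7.57 ± 0.724 FPKM without IL-6 and 12.8 ± 1.69 with it, and Pim1-201 at 8.13 ± 0.588 and 9.14 ± 0.318, so most of the added Pim1 signal was assigned to the retained-intron form. Bcl2l1 was held by Bcl2l1-201 (55.8%), Bcl2l1-202 (19.7%) and the noncoding Bcl2l1-209 (11.7%). Myc was shared by Myc-205 (47.5%), Myc-206 (18.9%), Myc-204 (13.5%) and Myc-207 (12.9%), and Myc-207 ranged from 0.5798 to 5.0 FPKM between the 2 untreated WT libraries. Mcl1-201 alone was at 68.2 ± 1.83 and 71.1 ± 2.85 FPKM in WT without and with IL-6, and at 61.9 ± 0.456 and 62.6 ± 0.0743 in KO. The other Mcl1 transcript was at 2.08 ± 2.94 and 0 FPKM in WT, and at 1.59 ± 2.25 and 7.82 ± 1.54 in KO. Most of the added Mcl1 signal with IL-6 in KO was thus assigned to that minor form. Transcripts of 1 gene share most of their fragments, so this split is an estimate, and differences in it were not tested.

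**Figure D4:**
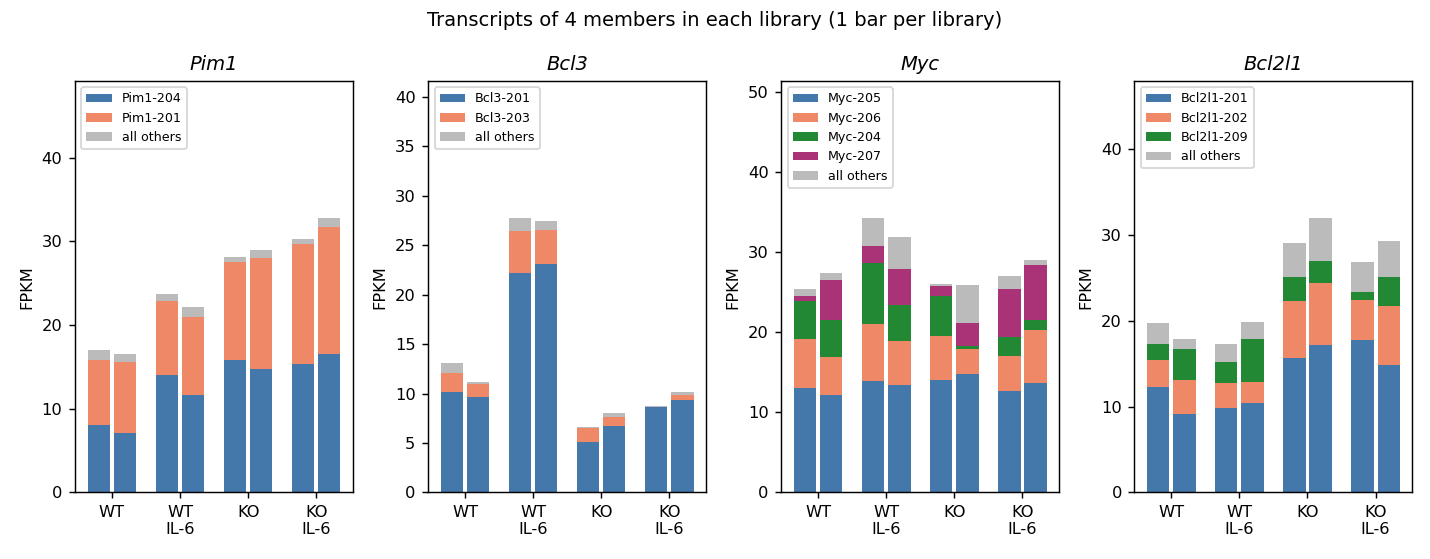
FPKM (vertical axis, from 0) of the transcripts of Pim1, Bcl3, Myc and Bcl2l1, stacked, with 1 bar per library in the 4 groups. Colours mark transcripts with at least 10% of the gene's signal over all libraries and grey the others; in Pim1 the blue Pim1-204 stands at a mean of 7.57 FPKM without and 12.8 with IL-6 in WT.

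Genes on the opposite strand overlap 4 of the loci, and the counting is not stated to use strand. Gm26885 at Pim1 was at 0.562 to 2.052 FPKM, Gm16174 at Bcl3 at 1.444 to 2.921 and Gm16175 at Bcl3 at 0 except for 0.555 in 1 library. D630008O14Rik at Bcl2 was at 0 in all libraries. The short Gm37419, within the first exon of Bcl6, was listed at 47.152 FPKM in the second untreated WT library and at 0 in the others, while Bcl6 in that library was at 3.515 FPKM beside 3.742 in its replicate.

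Other genes around the 9 were taken from 10 lists that were chosen with earlier results of these data known, so their counts are descriptions. Of 16 other STAT3 targets, 12 passed as higher and 1 as lower with IL-6 in WT (median log2 difference 0.65), beside 5 and 1 of the 9 survival and growth genes. Timp1, an inhibitor of matrix metalloproteinases, went from 114.0 ± 1.91 to 337.1 ± 2.41 FPKM (1.56 ± 0.034, adjusted p = 4.05e-06). Osmr, a receptor chain of the IL-6 family, went from 22.95 ± 1.37 to 52.88 ± 1.14 (1.17 ± 0.050, adjusted p = 2.38e-05). The lower one was Ccnd1, the gene of cyclin D1 (18.83 ± 0.591 to 7.083 ± 0.542; -1.30 ± 0.067, adjusted p = 4.25e-05). In KO 13 of the 16 had an unadjusted p below 0.05 for IL-6 (median 0.22), as did 1025 of the 13693 genes tested. Among them were Socs3 (0.55 ± 0.060, limma adjusted p = 0.0774), Osmr (0.49 ± 0.050, adjusted p = 0.0706) and Cebpb (0.50 ± 0.060, adjusted p = 0.125). Of the 13, Vegfa (-0.21 ± 0.072, adjusted p = 0.58) and Ccnd1 (-0.26 ± 0.067, adjusted p = 0.415) were lower with IL-6, and the others were higher. After adjustment 1 of the 16 passed, Cebpd (6.702 ± 0.311 to 11.41 ± 0.523; 0.69 ± 0.063, adjusted p = 0.0401), a call lost when a WT library with IL-6 was left out (adjusted p = 0.0767 and 0.0751), an untreated KO library (0.25 and 0.191) or a treated KO library (0.129 and 0.313). The response of 9 of the 16 was lower in KO, Timp1 (-1.30 ± 0.048, adjusted p = 9.04e-05) among them, and that of Ccnd1 was higher in sign (1.04 ± 0.095, adjusted p = 0.00174), that is, less negative.

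Partners, substrates and related genes of these proteins were counted in the same way for IL-6 in WT. There 8.3% of all genes passed as higher and 7.41% as lower. Against that background the counts for the 2 Myc lists and the Pim substrates are no result about those lists. Of 9 tested NF-kappaB and IkappaB genes, which include those of the Bcl3 partners p50 and p52, 4 rose and 0 fell. Nfkbiz, another nuclear IkappaB protein, was at 20.84 ± 0.638 and 30.34 ± 0.36 FPKM (0.52 ± 0.049, limma adjusted p = 0.000599). Nfkb1, the source of p50, was at 57.61 ± 0.986 and 74.37 ± 0.506 (0.36 ± 0.038, adjusted p = 0.00101, and 0.0796 for its main transcript). The median of that list was 0.17. Of the Bcl6 paralog and corepressor genes 0 of 6 passed (median 0.02), and 1 of them, Bcl6b, had an unadjusted p below 0.05. Of 10 Pim substrate genes 3 rose, Eif4ebp1, a brake on cap-dependent translation, by 0.34 ± 0.051 (adjusted p = 0.00487). Of 20 growth targets of Myc 3 rose and 1 fell (median 0.03), with Ldha, lactate dehydrogenase A, at 631.6 ± 28.0 and 811.8 ± 3.43 FPKM (0.36 ± 0.040, adjusted p = 0.00125) and Tfrc, the transferrin receptor, at 15.42 ± 0.958 and 22.81 ± 2.16 (0.53 ± 0.072, adjusted p = 0.00318). The gene that fell was Ccnd2 (-0.25 ± 0.063, adjusted p = 0.0358), whose call was kept only without the first untreated WT library when 1 library was left out (0.0611 to 0.153 for the other 7). Of 11 tested Myc network partners 1 rose, Mxi1 (0.19 ± 0.046, adjusted p = 0.0352), and 2 fell, Mxd1 (-0.33 ± 0.080, adjusted p = 0.0349) and Mxd4 (-0.15 ± 0.039, adjusted p = 0.04), all 3 encoding antagonists of Myc at Max. The Mxi1 and Mxd4 calls were lost whenever 1 library was left out (0.0508 to 0.159 and 0.056 to 0.15), and that of Mxd1 except without the first WT library with IL-6 (0.0567 to 0.16 for the others). In KO 0 of the 74 tested genes of the lists other than the STAT3 targets passed for IL-6 by limma, and 6 had an unadjusted p below 0.05.

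In the rest of the BCL-2 family 4 of 13 tested genes (30.8%) passed for IL-6 in WT, beside 15.7% of all genes, and 3 of the 4 calls depended on single libraries. Bcl2l2, the only tested gene of 5 other anti-apoptotic members, was at 13.5 ± 1.08 and 15.9 ± 0.85 FPKM (0.22 ± 0.071, adjusted p = 0.0856). Of the 3 effectors 1 passed as lower, Bok (-0.20 ± 0.055, adjusted p = 0.0482), a call lost whenever any 1 library was left out (0.0647 to 0.203). Of 9 tested BH3-only genes, which promote death, 2 passed as higher and 1 as lower. Among the higher genes was Bnip3l, a mitophagy receptor (73.93 ± 1.24 to 90.68 ± 1.92 FPKM; 0.29 ± 0.034, adjusted p = 0.00161, and 0.168 for its main transcript). The other higher gene was Bnip3 (0.44 ± 0.098, adjusted p = 0.0246), which did not pass without either untreated WT library (0.111 and 0.0657) or without the first WT library with IL-6 (0.11). The lower gene was Bbc3, which encodes Puma (-0.28 ± 0.062, adjusted p = 0.0248), lost without the second untreated WT library (0.123) and without either WT library with IL-6 (0.119 and 0.0735). Of 6 inhibitors of apoptosis 1 passed as higher, Birc3 (0.43 ± 0.090, adjusted p = 0.0202), which did not pass when any 1 of the 4 WT libraries was left out (0.0547 to 0.103).

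Between the genotypes most lists had calls, as did 71.0% of all genes without IL-6. Of the inhibitors of apoptosis 5 of 6 were lower in untreated KO (median -0.27) and 0 higher, with Birc3, the gene of cIAP2, at 7.314 ± 0.405 FPKM against 26.57 ± 1.47 (-1.73 ± 0.090, adjusted p = 1.57e-06) and Cflar, the gene of the caspase-8 inhibitor c-FLIP, at 11.96 ± 0.9 against 21.79 ± 0.842 (-0.82 ± 0.064, adjusted p = 1.57e-05). The NF-kappaB and IkappaB genes were lower in 7 of 9 (median -0.35) and higher in 1. Among the lower was Nfkbia, the gene of IkappaB alpha, at 35.64 ± 0.149 against 127.5 ± 1.2 FPKM (-1.81 ± 0.034, limma adjusted p = 7.54e-09). Of the BH3-only genes 4 were higher and 3 lower. Pmaip1, the gene of Noxa, which binds Mcl1, was at 22.85 ± 1.26 against 4.638 ± 0.158 FPKM (2.08 ± 0.068, adjusted p = 1.25e-07), while Bik was at 0.3053 ± 0.072 against 2.517 ± 0.386.

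Of the growth targets of Myc 15 of 20 were higher in untreated KO and 2 lower (median 0.54), where Myc itself did not pass. Its relative Mycn was at 5.3 ± 0.165 FPKM in untreated KO against 0.03424 ± 0.00381 in WT, and its relation to these targets was not tested. Mycn, Bik and Bcl6b reached 1 FPKM in 1 genotype only and entered the test through it, so their calls between the genotypes, though included in the counts of their lists, give those counts no support. Among the targets Ccnd2, the gene of cyclin D2, was at 38.45 ± 0.684 against 3.721 ± 0.3 FPKM (3.06 ± 0.063, adjusted p = 1.18e-08), and Fbl, the nucleolar methyltransferase fibrillarin, at 67.42 ± 1.7 against 40.59 ± 0.158 (0.72 ± 0.048, adjusted p = 6.14e-06). Of the Pim substrates 4 were higher and 3 lower. Cdkn1a, the gene of the cell-cycle inhibitor p21, was at 5.5 ± 0.101 FPKM in untreated KO against 43.74 ± 0.426 in WT (-2.78 ± 0.091, adjusted p = 1.22e-07), and Cdkn1b, the gene of p27, at 42.05 ± 0.835 against 20.22 ± 0.7 (1.02 ± 0.057, adjusted p = 2.32e-06). Of the Bcl6 paralog and corepressors 2 were higher and 2 lower, with the paralog Bcl6b at 0.2585 ± 0.0637 against 1.893 ± 0.0452 FPKM. Of the Myc network partners 3 were higher and 4 lower, and of the other STAT3 targets 4 were higher and 11 lower. With IL-6, 5 of 6 inhibitors of apoptosis and 8 of 9 NF-kappaB and IkappaB genes were lower in KO. Of 20 Myc targets 13 were higher and 2 lower, and of the other STAT3 targets 2 were higher and 12 lower. These counts stand beside 71.0% and 71.7% of all genes differing without and with IL-6, and the part of the sex and tissue markers in them was not tested.

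Over the 8 libraries the level of Bcl3 was most like that of Bcl6 (Pearson r = 0.9932 on log2 of FPKM + 1) and Slc20a2 (0.9932), and that of Bcl6 most like Ctsb (0.9939) and Cyp1b1 (0.9937). Bcl3 was thus the only one of the 9 with another of them among its 2 nearest genes. Pim1 was nearest to Zfp281 (0.995) and Ccng2 (0.9935), Pim3 to Hmox1 (0.9933) and Lipe (0.9904), and Pim2 to Tbcb (0.9718) and Srgap3 (0.9669). Bcl2 was nearest to Tcim (0.9994) and Olfml2b (0.9993), Bcl2l1 to Tfeb (0.996) and Cdkn2aipnl (0.9954), Myc to Nrp1 (0.9727) and Lbp (0.9592), and Mcl1 to Nudt16 (0.962) and AA465934 (0.9499). Within the set Bcl3 ran with Myc (0.86) and against Bcl2 (-0.9), and Bcl2l1 ran with Bcl2 (0.94). These 8 libraries fall into 4 groups of replicates, so the correlations mostly restate the group means, and they carry no p-value.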

How the data were processed

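Per the labels' protocols, RNA of mouse embryonic fibroblasts was purified on RNeasy columns and turned into 8 libraries by TruSeq stranded mRNA preparation. The authors deposited FPKM per transcript; HISAT2, Cufflinks 2.2.1 and GRCm38.p6 are named in the submitters' processing notes. FPKM is relative to each library's total, so a change in a few abundant genes moves the others. Here 142869 transcripts per library were summed to 55358 genes by name, since the rule for the 9 genes is by name. Positions are from GENCODE M21 (GRCm38.p6) and start windows from RefSeq.

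Log2 of FPKM + 1 was fitted with limma 3.58.1 (R 4.3.3): a mean per group, all 8 libraries, 4 residual degrees of freedom and an intensity trend, for the 13693 genes that reached 1 FPKM in 2 or more libraries. P-values were adjusted over all of them (Benjamini-Hochberg), and a gene passed at an adjusted p below 0.05. The fit was tested on simulated data for IL-6 in WT, with 50 changed genes of each size. It recovered 32.0% of log2 changes of 0.25, 80.0% of 0.5, 96.0% of 1.0 and 100.0% of 2.0. Small changes can thus be missed. Of the unchanged genes 10 were called. Only genes above a minimum mean level were changed, far fewer than were called in the real data, and no genotype difference was simulated. The shares thus cover neither a gene as low as Bcl2 nor the other comparisons. The files held no counts, so depth was fitted to low values, of which 94.5 to 95.5% (1247 to 1492 per library) lay within 0.1 of a whole fragment. Arid5a, all 9 genes, the transcripts with at least 10% of a gene, the 2 genes most like each and at most 2 called genes per list, comparison and direction could be named. Outside this rule, some list genes were named without passing. They were Socs3, Osmr, Cebpb, Vegfa and Ccnd1 for IL-6 in KO, and Bcl2l2 and Bcl6b for IL-6 in WT. The genes and lists were chosen with earlier results of these data known. Promoter windows, isoform shares and marker sums are descriptions. There were 19 alternatives: other scalings, filters, pseudocounts and designs, transcripts, and each library left out. Tables were handled in pandas 2.3.3 and numpy 2.4.6 (Python 3.11.15), and plots drawn in matplotlib 3.10.9.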

Additional observations from a re-analysis of the deposited data

Results flagged for a closer look

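The IL-6 response differed between the genotypes, by the interaction test of limma, for 3 of the 9 genes: Bcl3 (-0.80 ± 0.15, KO minus WT on the log2 scale, adjusted p = 0.0268), Bcl6 (-0.59 ± 0.10, adjusted p = 0.0193) and Pim3 (-0.78 ± 0.087, adjusted p = 0.00347). In WT all 3 rose with IL-6, by 1.12, 0.85 and 0.94, and in KO they differed by 0.33, 0.27 and 0.16 without passing. In each genotype both libraries with IL-6 lay above both untreated ones for all 3 genes. Pim3 began from 31.67 ± 1.76 FPKM in untreated KO against 17.23 ± 1.2 in untreated WT, whereas Bcl3 and Bcl6 began lower in KO.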

How the results depend on the processing

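Over 836 alternative values of the 9 genes, 786 kept their side of the threshold (24 of them, all of values not called, with the other sign), 43 lost a call, 7 gained one and 0 of the called values changed sign. Genes called for IL-6 in WT numbered 2150, 938 with only the groups compared, 948 for transcripts and 1143 to 1777 without 1 library. For IL-6 in KO they numbered 3, 7 with no filter, 5 with a filter of 5 FPKM, 0 with only the groups compared (1105 at an unadjusted p below 0.05) and 0 to 6 without 1 library. For the difference between the responses they numbered 830, 521 with no filter, 248 for transcripts and 397 to 528 without 1 library; of the 9 genes 3 passed, 1 with no filter, 1 for transcripts and 1 to 3 without 1 library. Without 1 library, 4 to 5 of the 9 passed for IL-6 in WT, 6 to 8 for KO against WT without IL-6 and 5 to 7 with it. Where a library was left out, the lone sample of its group was assumed to vary like the others. Of the list genes, the difference between KO and WT with IL-6 changed sign for the main transcript of Bak1 (0.0308, from -0.19) and of Mlx (-0.26, from 0.11). The cause of these changes was not tested, except that a fit with fewer libraries has fewer degrees of freedom.

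Same-numbered libraries did not deviate together (r between groups -0.097 to 0.055), so the numbers were not taken as pairs. With the replicate block 1696 genes were called for IL-6 in WT, 2 for IL-6 in KO, 9566 and 9685 between the genotypes and 564 for the difference, and of the 9 genes only Bcl2 for IL-6 in WT changed its call (adjusted p = 0.0796). Equal total FPKM moved the median of all genes by at most 0.0846, for KO against WT with IL-6. The depth behind Bcl2 in WT with IL-6 was 104 to 118 fragments, which limits its precision.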
